A study of Astyanax mexicanus with 18 samples.

Results

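The genes described here are the circadian clock genes of the liver of Astyanax mexicanus, a fish with an eyed surface form and blind cave populations. They were chosen by symbol: period (per), cryptochrome (cry), clock, arntl (the bmal genes), npas2, nr1d (the Rev-erb receptors), ror, ciart, dbp, tef, hlf, nfil3, bhlhe40 and bhlhe41, the casein kinase genes csnk1d and csnk1e, timeless and tipin, with related symbols. Together they picked 48 of 27420 listed genes, and the 43 with at least 1 TPM (a length-corrected share of a library's transcripts) in 3 or more libraries were tested. The other 5 had lower levels. csnk1e, nfil3-4 and rorc stayed under 1 TPM in every library, timeless reached 1.03 and 1.04 TPM in 2 starved surface fish, and nr1d4a, a Rev-erb relative, reached 1.03 and 1.55 TPM in 2 refed cavefish. Among the 43, tefm encodes a mitochondrial transcription elongation factor and carries the letters of the rule without being a clock gene, so counts are also given without it.

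In the vertebrate clock, Clock or Npas2 pairs with a Bmal protein and switches on genes with E-box sites, among them the period and cryptochrome genes, whose proteins return to block the pair. A second loop joins Rev-erb receptors, which silence the bmal genes, and Ror receptors, which activate them, and a further one sets the activators Dbp, Tef and Hlf against Nfil3 at D-box sites. In liver this network times the use of nutrients and can be reset by meals. In fish tissues it also responds directly to light, and per2 and some photolyase and cryptochrome genes are known as light-induced in zebrafish. Cave populations of Astyanax are known for altered daily rhythms.

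Liver RNA came from surface fish and from Pachón cavefish, both aged 4 months and both raised from embryos in the laboratory. All fish were used to fixed meals and then fasted for 4 days, and the starved groups were dissected at that point. The refed groups were given 10 mg of Gemma pellets per fish, and their livers were taken 3 hours later. Each of the 4 groups has 3 RNA-seq libraries, 12 in all, and 6 ChIP-seq samples of the series were not used here. Neither the hour of dissection nor the light cycle is stated in the labels. A gene that differs in level and a gene whose daily peak has moved can therefore not be told apart in any comparison below. Whether starved and refed fish were dissected at the same hour is not stated either, so the meal and the hour cannot be told apart.

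The depth behind a TPM value is unknown. Libraries held 10952 to 12123 genes at or above 1 TPM. The liver label went with high hepatocyte markers: 16 matched and 14 tested markers summed to 187467 to 275849 TPM in 11 libraries and to 111663 TPM in Surface_starved replicate 2. That library also stood apart in 6 matched egg and vitellogenin genes, which summed to 4210 TPM there against 3.91 to 23.6 TPM elsewhere (the labels give no sex). Of 8 matched adipocyte markers, 4 of them tested, fabp11a set it apart, at 1410.4 TPM against 54.46 to 311.34 TPM elsewhere. Among starved surface fish, cidec, lipea, cfd and lepa were lowest in that library, at 28.58, 4.33, 0.77 and 0.07 TPM. lipeb was highest in it, at 0.77 TPM. The adipocyte sum was 1445 TPM there, 314 and 321 TPM in the other starved surface fish, 154 to 352 TPM in refed surface fish, 80.8 to 212 TPM in starved cavefish and 76.4 to 122.7 TPM in refed cavefish, with fabp11a in the lead and lepb at 0 in all 12. The sum of 18 matched macrophage markers, 12 of them tested, was 768 TPM in Surface_refed replicate 3 and 498 TPM in Pachon_starved replicate 1 against 122 to 414 TPM in the others. MFAP4 entries led these sums, at 297.54 and 276.33 TPM in the former library and 179.1 and 247.24 TPM in the latter. The rest of the list did not follow: cd74a, c1qa, c1qb, c1qc and csf1ra were highest in Surface_starved replicate 1, with cd74a at 291.83 TPM. Cholangiocyte markers, 14 matched and 8 tested, summed to 882 to 1235 TPM in refed cavefish, below starved cavefish at 1241 to 1678 TPM and refed surface fish at 1504 to 1792 TPM, and to 676 to 2266 TPM in starved surface fish. Their members went both ways in cavefish. krt18 had 393.26 to 550.79 TPM when starved and 223.53 to 386.27 TPM when refed, and tm4sf4 93.52 to 165.9 TPM and 181.87 to 208.27 TPM. Endothelial markers, 13 matched and 11 tested, summed to 48.5 to 71.9 TPM in refed cavefish, above starved cavefish at 42.4 to 44.7 TPM, and to 37.5 to 52.1 TPM in surface fish. Here too members went both ways in cavefish. kdrl had 9.13 to 10.52 TPM when starved and 14.03 to 21.26 TPM when refed, and stab1 2.93 to 4.48 TPM and 1.28 to 2.87 TPM. The part of these cell types in the results was not tested. In bulk tissue, fewer cells of a type and less RNA per cell cannot be told apart.

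Pachón cavefish had more transcript of several clock repressors and of dbpb than surface fish in both feeding states. Not all repressors went this way: bhlhe40, cry1bb and nr1d2b had lower means in cavefish in both states, without a call between populations. The cryptochrome cry1ab, the period gene per1a, the Rev-erb receptor nr1d1, the repressors ciarta and bhlhe41 and the D-box activator dbpb were called higher in cavefish both starved and refed, and the Ror receptor rorcb was called lower in both. dbpb reached 1 TPM in 3 libraries only through cavefish and rorcb through surface fish, the populations in which they were high. The calls of these 2 genes are therefore no independent support. Both calls of cry1ab, dbpb and bhlhe41 held under every alternative run, but bhlhe41 was too low to be tested with the filter of 5 TPM. Of the other 4 genes, nr1d1 and per1a lost each call, and ciarta and rorcb the refed one, under some alternatives, with nr1d1 and rorcb losing the refed call under 14. Calls are limma tests on log2(TPM + 1), with Benjamini-Hochberg adjustment across the 13157 genes tested, made at an adjusted p under 0.05. In starved fish 9 of 43 clock genes were called, 7 higher and 2 lower in cavefish (20.9%), against 13.1% of all tested genes (6.04% higher and 7.02% lower). In refed fish 12 were called, 11 higher and 1 lower (27.9%), against 13.4% of all tested genes (9.82% higher and 3.62% lower). Without tefm these were 9 and 11.

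The same 7 genes made up 77.8% of the calls in starved and 58.3% of those in refed fish, all with the same sign. The libraries compared are separate, but both comparisons use the same estimate of each gene's spread, drawn from all 4 groups. Calls in the 2 states are therefore not independent. These 7 genes are 16.3% of the described clock genes, against 5.84% of all tested genes called in both states. The sign of the difference matched in 33 of 43 clock genes (76.7%) and in 61.7% of all genes. Libraries of the populations did not overlap for 25 clock genes in starved fish (58.1%, against 34.2% of all genes) and for 19 in refed fish (44.2%, against 35.8%), and for 12 in both states in the same direction (27.9%, against 13.6%). The median difference was not far from that of all genes, at -0.21 log2 units against -0.13 in starved fish and 0.27 against 0.18 in refed fish. Some described genes reached 1 TPM in 3 libraries only or mainly through 1 population or state, rorb, cry5 and dbpb through cavefish, roraa and rorcb through surface fish and clocka through starved surface fish, and these shares are no support for a difference.

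**Figure D1:**
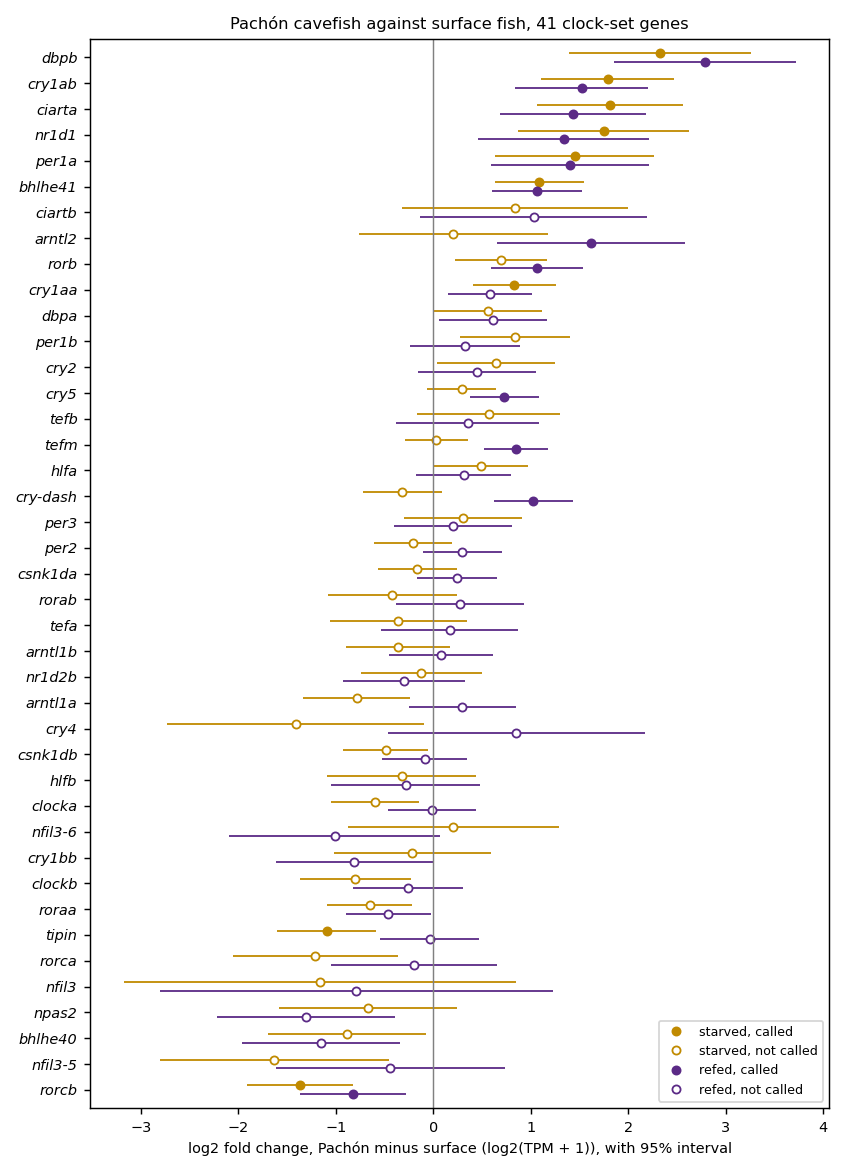
Log2 fold change, Pachón cavefish minus surface fish on log2(TPM + 1), with its 95% interval for 41 of the 43 tested genes, in starved fish (ochre) and refed fish (purple). Filled points are called at an adjusted p under 0.05, and from dbpb to bhlhe41 the 6 top genes are filled in both states.

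After the meal, bhlhe40 was called higher in surface fish, and clocka and cry5 were called lower. In all 4 of 43 clock genes were called (9.3%), against 18.7% of all tested genes called (9.03% higher and 9.68% lower). In Pachón cavefish 9 were called (20.9%, against 30.6% of all tested genes, 22.9% higher and 7.64% lower), or 8 without tefm. Among them, cry-dash, per2, tipin, rorb and tefm rose, and ciarta, cry1aa and nfil3-6 fell. Of the genes named here, clocka passed the filter only through starved surface fish and rorb only through cavefish. They were high in those groups, so their calls are no independent support. cry5 stayed under 1 TPM in every surface library and was tested through cavefish. The surface calls of bhlhe40, clocka and cry5 each ended under some alternatives. Libraries of starved and refed fish did not overlap for 12 clock genes in surface fish (27.9%, against 32.7% of all genes) and for 23 in cavefish (53.5%, against 51%). The sign of the response was shared by 30 of 43 (69.8%), against 71% of all genes.

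**Figure D2:**
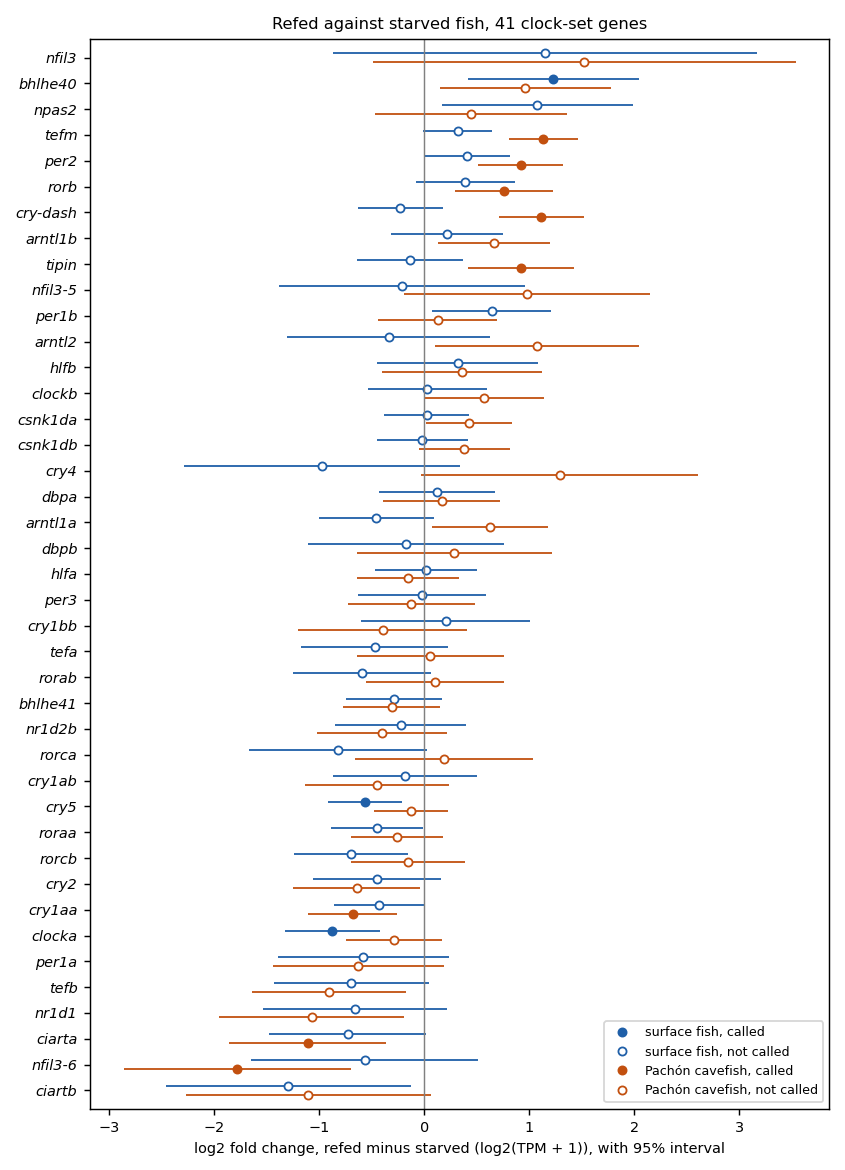
Log2 fold change, refed minus starved on log2(TPM + 1), with its 95% interval for 41 of the 43 tested genes, in surface fish (blue) and Pachón cavefish (orange). Filled points are called, among them bhlhe40, clocka and cry5 in surface fish and cry-dash, per2 and nfil3-6 in cavefish.

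The scale of TPM can move with the most abundant genes. The median log2 difference over all genes was 0.17 after the meal in cavefish and 0.18 between refed populations. For the difference in response it was 0.29 and between starved populations -0.13. Rescaling without the 20 most abundant genes gave 0.178, 0.151, 0.203 and -0.078 in the same order. Scaling by median of ratios, which is built to bring such medians near 0, gave -0.02, 0.02, 0.03 and -0.03. Under it, 4 clock genes were called higher and 8 lower after the meal in cavefish, against 5 and 4, and under quantile normalization 5 and 9. Between starved populations the split was 9 higher and 3 lower under median of ratios, against 7 and 2. Between refed populations it was 9 higher and 3 lower under median of ratios and 7 and 2 under quantile normalization, against 11 and 1. After the meal in surface fish it was 1 and 3 under median of ratios and 0 and 2 under quantile normalization. None of the 34 calls of clock genes changed sign under the alternatives run.

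**Figure D3:**
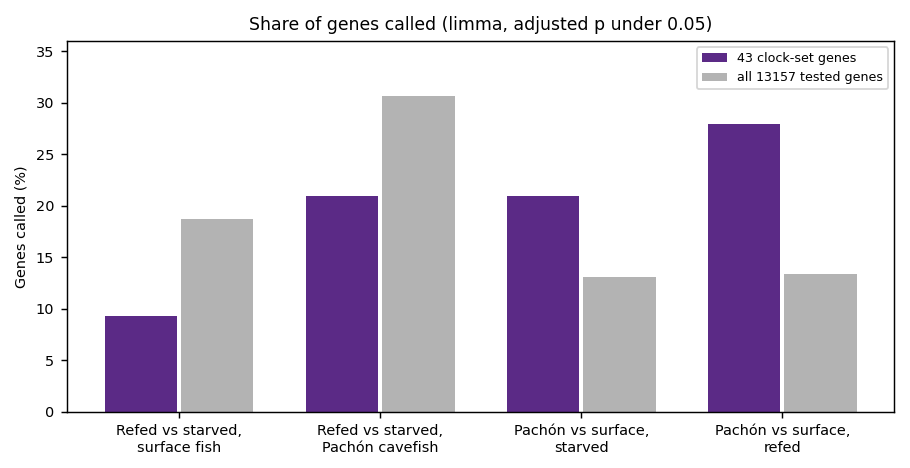
Percent of genes called at an adjusted p under 0.05 in 4 comparisons, for the 43 described clock genes (purple) and all 13157 tested genes (grey). The clock bars are lower for refeeding, at 9.3% and 20.9%, and higher between populations, at 20.9% and 27.9%.

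Fold changes are given with the standard error of the fit, and those of genes near 1 TPM are understated by the added 1. Values in libraries are listed from replicate 1 to replicate 3. Of the 34 calls, 15 held under every alternative run, among them bhlhe41, cry1ab and dbpb between both pairs of populations, ciarta and rorcb between starved fish, cry-dash and tefm between refed fish, and cry-dash, per2 and tefm after the meal in cavefish. Of these, bhlhe41, rorcb, cry-dash, per2 and tefm were too low for the filter of 5 TPM, so that alternative was not run for them. The other 19 calls ended under at least 1 alternative, by a library left out or by another setting. For the genes reported here those alternatives are named beside each call. Many of these genes have a teleost duplicate, and reads of 50 bases can be shared between near copies, so levels of paralogues such as cry1aa and cry1ab are uncertain to that extent.

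Among the 6 activators, arntl2 and clocka gave a call. arntl2 (ENSAMXG00000020233), which encodes Bmal2, was called higher in refed cavefish than in refed surface fish. Its level was 0.53, 4.53 and 1.09 TPM in starved and 0.63, 1.06 and 1.6 TPM in refed surface fish. In cavefish arntl2 measured 3.61, 1.4 and 1.45 TPM when starved and 7.31, 5.56 and 3.64 TPM when refed. All 3 refed cavefish were above all 3 refed surface fish, while the starved groups overlapped. The difference between refed populations was 1.62 ± 0.44 (limma adjusted p = 0.0328, 0.00735 to 0.106 over 22 alternatives), and that between starved populations 0.21 ± 0.44 (limma adjusted p = 0.796). The refed call ended without Surface_refed replicate 1 or 2, without Pachon_refed replicate 1 or 2, with no filter on low values, with quantile normalization and with the replicate block.

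clocka (ENSAMXG00000005565), a Clock gene near the limit of 1 TPM, fell in surface fish after the meal. It measured 1.25, 2.31 and 1.08 TPM in starved and 0.17, 0.56 and 0.37 TPM in refed surface fish, against 0.61, 0.73 and 0.6 TPM in starved and 0.23, 0.6 and 0.24 TPM in refed cavefish. Starved surface fish were above every other library. They alone reached 1 TPM, so clocka entered the test only through the group in which it was high and the fall is no independent support. Its log2 fold change was -0.88 ± 0.21 (limma adjusted p = 0.0149, 0.00895 to 0.0687 over 22 alternatives), and it ended when only the 2 groups entered the fit. In cavefish the value was -0.29 ± 0.21 (limma adjusted p = 0.326).

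Its paralogue clockb (ENSAMXG00000021792) measured 2.5, 3.61 and 2.62 TPM in starved and 1.98, 2.28 and 5.35 TPM in refed surface fish. In cavefish clockb had 1.13, 1.55 and 1.04 TPM when starved and 2.23, 2.35 and 2.36 TPM when refed. Starved cavefish lay below the 9 other libraries, with a difference from starved surface fish of -0.80 ± 0.26 that missed the threshold (limma adjusted p = 0.064). The first Bmal1 gene, arntl1a (ENSAMXG00000011758), showed the same order among starved fish. It measured 9.01, 8.51 and 8.92 TPM in starved and 4.83, 5.79 and 8.23 TPM in refed surface fish. Cavefish had 6.71, 4.37 and 3.45 TPM of arntl1a when starved and 6.02, 9.64 and 8.07 TPM when refed. The starved populations did not overlap, at -0.79 ± 0.25 (limma adjusted p = 0.0605).

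The second Bmal1 gene, arntl1b (ENSAMXG00000010089), was the most abundant activator, at 12.85, 15.3 and 15.33 TPM in starved and 12.27, 17.45 and 22.63 TPM in refed surface fish. In cavefish it had 11.05, 11.53 and 10.45 TPM when starved and 16.79, 23.54 and 14.69 TPM when refed. The refed cavefish lay above the starved ones, at 0.66 ± 0.24 (limma adjusted p = 0.0589). npas2 (ENSAMXG00000006915), which can take the place of Clock, measured 3.08, 4.44 and 6.97 TPM in starved and 20.91, 6.02 and 9.8 TPM in refed surface fish. Cavefish had 1.64, 3.26 and 2.9 TPM of npas2 when starved and 5, 2.19 and 4.75 TPM when refed. The refed surface library at 20.91 TPM stood far above the rest, and refed cavefish were below refed surface fish by -1.31 ± 0.42 (limma adjusted p = 0.0607).

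Among the period genes, the loop's own repressors, the paralogue per1a (ENSAMXG00000019909) was higher in cavefish in both states. It measured 9.15, 5.7 and 5.34 TPM in starved and 8.25, 4.03 and 1.77 TPM in refed surface fish. In cavefish per1a had 16.44, 19.09 and 24.15 TPM when starved and 11.49, 11.43 and 14.32 TPM when refed. All 6 cavefish lay above all 6 surface fish, by 1.45 ± 0.37 in the starved state (limma adjusted p = 0.0264, 0.00406 to 0.0995 over 23 alternatives) and 1.40 ± 0.37 in the refed state (limma adjusted p = 0.0287, 0.00393 to 0.0896 over 23 alternatives). The starved call ended without Surface_starved replicate 2 or 3, without any 1 Pachon_starved library and without Surface_starved replicate 2 and Pachon_refed replicate 1 together. The refed call ended without Surface_refed replicate 2 or 3, without any 1 Pachon_refed library, without that same pair, with no filter, with median-of-ratios or quantile scaling and with only the 2 groups in the fit.

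per1b (ENSAMXG00000018625) measured 6.38, 2.75 and 2.88 TPM in starved and 7.75, 6.68 and 5.06 TPM in refed surface fish. Cavefish had 6.79, 7.59 and 8.15 TPM of per1b when starved and 7.57, 8.36 and 8.93 TPM when refed. The starved populations did not overlap, but the difference of 0.84 ± 0.26 missed the threshold (limma adjusted p = 0.0535).

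per2 (ENSAMXG00000001431), the period gene known as light-induced in zebrafish, rose in cavefish after the meal. It measured 2.55, 1.77 and 2.59 TPM in starved and 3.27, 2.85 and 4.04 TPM in refed surface fish. In cavefish per2 had 2.16, 1.93 and 1.48 TPM when starved and 4.37, 3.76 and 5.05 TPM when refed. In each population the refed fish lay above the starved ones. The rise was 0.92 ± 0.18 in cavefish (limma adjusted p = 0.00315), and surface fish had 0.41 ± 0.18 (limma adjusted p = 0.143). Tested directly, the responses differed by 0.51 ± 0.26 (limma adjusted p = 0.349).

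per3 (ENSAMXG00000003662) measured 15.09, 7.98 and 7.54 TPM in starved and 7.63, 12.12 and 9.44 TPM in refed surface fish. In cavefish per3 had 12.28, 15.2 and 9.8 TPM when starved and 11.32, 9.61 and 12.78 TPM when refed. The 4 groups overlapped, and the differences ranged from -0.12 to 0.30 log2 units over the 4 pairwise comparisons.

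Among the cryptochromes, cry1ab (ENSAMXG00000020084) was higher in cavefish in both states. It measured 6.57, 7.9 and 12.7 TPM in starved and 7.68, 7.41 and 7.63 TPM in refed surface fish. In cavefish cry1ab had 37.23, 25.43 and 36.77 TPM when starved and 14.59, 32.62 and 27.57 TPM when refed. Every cavefish library was above every surface library, by 1.79 ± 0.31 in starved fish (limma adjusted p = 0.0038) and 1.52 ± 0.31 in refed fish (limma adjusted p = 0.00844). The mean was 3.66 times as high in starved and 3.29 times as high in refed cavefish as in surface fish.

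cry1aa (ENSAMXG00000005406), its close paralogue, was called higher in starved cavefish and fell in cavefish after the meal. It measured 19.64, 17.99 and 18.27 TPM in starved and 15.16, 11.77 and 13.92 TPM in refed surface fish. In cavefish cry1aa had 39.23, 28.96 and 34.48 TPM when starved and 17.54, 22.36 and 22.89 TPM when refed. Starved cavefish were above all other libraries, and refed cavefish above refed surface fish. The starved difference was 0.83 ± 0.19 (limma adjusted p = 0.0176, 0.00911 to 0.0626 over 23 alternatives) and ended without Pachon_starved replicate 1 or 3 and with only the 2 groups in the fit. The refed difference of 0.58 ± 0.19 missed the threshold (limma adjusted p = 0.0704). The fall after the meal was -0.68 ± 0.19 in cavefish (limma adjusted p = 0.0205, 0.00315 to 0.0855 over 23 alternatives). It ended without Pachon_starved replicate 1 or 3, without Pachon_refed replicate 1 and without the latter and Surface_starved replicate 2 together. In surface fish the value was -0.43 ± 0.19 (limma adjusted p = 0.147).

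cry1bb (ENSAMXG00000008895) measured 7.27, 13.43 and 17.98 TPM in starved and 11.84, 10.09 and 23.22 TPM in refed surface fish. In cavefish cry1bb had 11.56, 9.54 and 9.99 TPM when starved and 5, 9.94 and 8.77 TPM when refed. Refed cavefish lay just below refed surface fish, at -0.81 ± 0.37 (limma adjusted p = 0.167). The values of cry2 (ENSAMXG00000038837) were 10.01, 5.87 and 9.5 TPM in starved and 4.27, 6.4 and 7 TPM in refed surface fish. In cavefish cry2 had 10.4, 17.49 and 13.36 TPM when starved and 6.1, 9.03 and 10.11 TPM when refed. Starved cavefish were above starved surface fish and above refed cavefish, at 0.64 ± 0.28 and with a refeeding response of -0.65 ± 0.28 (limma adjusted p = 0.15 and 0.101).

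cry4 (ENSAMXG00000008920), a fish cryptochrome outside the Cry1 and Cry2 repressors, measured 2.4, 17.98 and 9.68 TPM in starved and 0.97, 5.31 and 6.3 TPM in refed surface fish. In cavefish cry4 had 3.54, 1.81 and 1.87 TPM when starved and 6.63, 9.12 and 5.91 TPM when refed. Surface libraries were widely spread, with the highest in Surface_starved replicate 2, while refed cavefish lay above starved ones. The responses to the meal were -0.98 ± 0.60 in surface fish and 1.29 ± 0.60 in cavefish, and their difference of 2.26 ± 0.85 missed the threshold (limma adjusted p = 0.233).

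cry-dash (ENSAMXG00000002370), which encodes a photolyase-like DASH cryptochrome, rose in cavefish after the meal. It measured 2.03, 1.48 and 1.71 TPM in starved and 1.85, 0.88 and 1.36 TPM in refed surface fish, against 1.48, 1.14 and 0.98 TPM in starved and 3.62, 4.18 and 3.46 TPM in refed cavefish. Refed cavefish were above all 9 other libraries. The rise in cavefish was 1.12 ± 0.18 (limma adjusted p = 0.0011), the difference between refed populations 1.03 ± 0.18 (limma adjusted p = 0.00412), and the value in surface fish after the meal -0.23 ± 0.18 (limma adjusted p = 0.423).

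cry5 (ENSAMXG00000006386), named for the cryptochromes but known as a 6-4 photolyase in zebrafish, was a low transcript that reached 1 TPM only in cavefish and was tested through them. It stood at 0.78 TPM in all 3 starved surface fish and at 0.2, 0.14 and 0.28 TPM in refed surface fish, against 1.19, 1.51 and 0.88 TPM in starved and 1.04, 0.76 and 1.22 TPM in refed cavefish. Refed surface fish lay below all other libraries. The fall in surface fish was -0.56 ± 0.16 (limma adjusted p = 0.0325, 0.0118 to 0.0832 over 22 alternatives). It ended without any 1 of the 6 surface libraries, without Surface_starved replicate 2 and Pachon_refed replicate 1 together, with quantile normalization, with the replicate block and with library weights. The difference between refed populations was 0.73 ± 0.16 (limma adjusted p = 0.0125, 0.00494 to 0.0504 over 22 alternatives) and ended without Pachon_refed replicate 3. cry5 passed the filter only through cavefish, the population in which it was higher, so this call is no independent support.

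**Figure D4:**
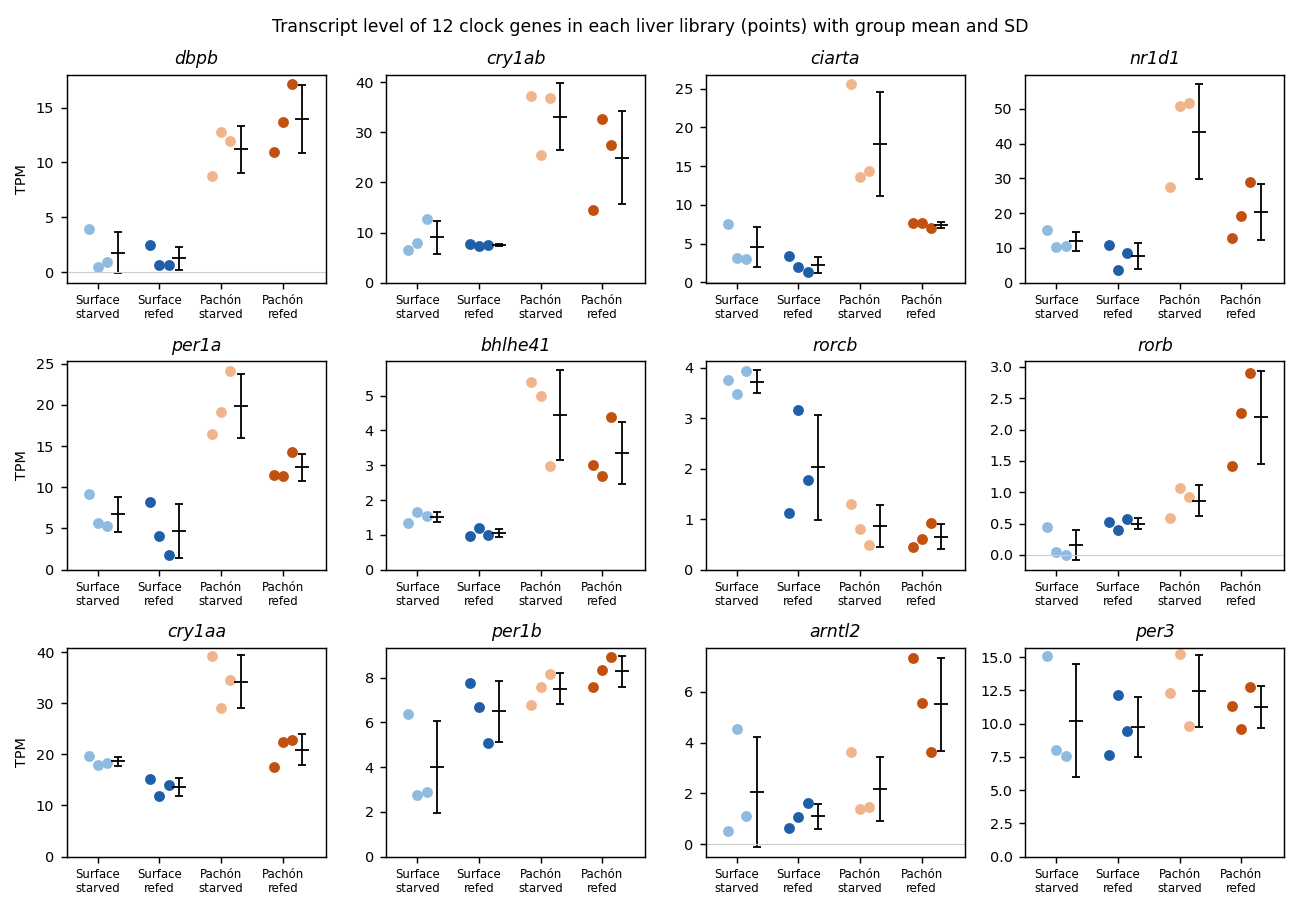
TPM of 12 clock genes in each library (points) with the mean and SD of 3 libraries beside them, for starved and refed surface fish (light and dark blue) and starved and refed Pachón cavefish (light and dark orange). In cry1ab all 6 cavefish lie between 14.59 and 37.23 TPM and all 6 surface fish between 6.57 and 12.7 TPM, while in per3 the groups overlap.

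In the second loop, nr1d1 (ENSAMXG00000015855), the Rev-erb alpha gene, was higher in cavefish. It measured 15.07, 10.19 and 10.46 TPM in starved and 10.95, 3.6 and 8.45 TPM in refed surface fish. In cavefish nr1d1 had 27.57, 50.92 and 51.76 TPM when starved and 12.86, 19.23 and 29 TPM when refed. Within each feeding state the populations did not overlap. The difference was 1.75 ± 0.40 in starved fish (limma adjusted p = 0.0161, 0.00382 to 0.0674 over 23 alternatives) and ended without Pachon_starved replicate 2 or 3. In refed fish it was 1.34 ± 0.40 (limma adjusted p = 0.0478, 0.016 to 0.165 over 23 alternatives) and ended under 14 of the alternatives. These were leaving out replicate 2 or 3 of any of the 4 groups, no filter, the 3 other scalings, the replicate block and only the 2 groups. The response to the meal was -1.07 ± 0.40 in cavefish (limma adjusted p = 0.0631).

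nr1d2b (ENSAMXG00000016930), a Rev-erb beta gene, measured 9.95, 7.74 and 8.36 TPM in starved and 10.36, 6.27 and 5.78 TPM in refed surface fish. In cavefish nr1d2b had 5.51, 11.64 and 7.43 TPM when starved and 4.35, 7.13 and 5.9 TPM when refed. The groups overlapped in each of the 4 pairwise comparisons, with differences of -0.40 to -0.12 log2 units.

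Of the Ror receptors, rorcb (ENSAMXG00000015029) was lower in cavefish in both states and rorb higher in the refed state. rorcb measured 3.75, 3.48 and 3.93 TPM in starved and 1.13, 3.16 and 1.78 TPM in refed surface fish, against 1.3, 0.8 and 0.48 TPM in starved and 0.44, 0.61 and 0.92 TPM in refed cavefish. Within each state the populations did not overlap. Only 1 cavefish library reached 1 TPM, so rorcb passed the filter through surface fish, in which it was high, and its calls are no independent support. The difference was -1.37 ± 0.25 in starved fish (limma adjusted p = 0.00487) and -0.82 ± 0.25 in refed fish (limma adjusted p = 0.0498, 0.0195 to 0.167 over 22 alternatives). The refed call ended under 14 alternatives, which were leaving out any 1 library but Surface_refed replicate 1 and Pachon_starved replicate 1, leaving out Surface_starved replicate 2 and Pachon_refed replicate 1 together, no filter, the replicate block and only the 2 groups.

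rorb (ENSAMXG00000018669) passed the filter through cavefish alone, the group in which it was high, so its calls are no independent support. It measured 0.44, 0.04 and 0 TPM in starved and 0.52, 0.4 and 0.58 TPM in refed surface fish, against 0.59, 1.07 and 0.93 TPM in starved and 1.42, 2.26 and 2.9 TPM in refed cavefish. Refed cavefish lay above all other libraries. The difference between refed populations was 1.07 ± 0.21 (limma adjusted p = 0.00783, 0.00331 to 0.0535 over 22 alternatives) and ended with a pseudocount of 0.1. The rise in cavefish was 0.76 ± 0.21 (limma adjusted p = 0.0199, 0.00364 to 0.136 over 22 alternatives). It ended without Pachon_starved replicate 1, without Pachon_refed replicate 2 or 3, with a pseudocount of 0.1 and with median-of-ratios scaling.

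The other Ror genes gave no call. roraa (ENSAMXG00000000403) measured 3.27, 1.79 and 1.4 TPM in starved and 1.4, 1.19 and 1.12 TPM in refed surface fish, against 0.92, 0.95 and 0.97 TPM in starved and 0.65, 0.53 and 0.69 TPM in refed cavefish. All 6 cavefish were below all 6 surface fish, at -0.65 ± 0.20 when starved and -0.46 ± 0.20 when refed (limma adjusted p = 0.0531 and 0.148). rorab (ENSAMXG00000014990) measured 7.32, 5.46 and 3.64 TPM in starved and 4.25, 2.74 and 2.7 TPM in refed surface fish, against 2.28, 4.81 and 4.46 TPM in starved and 2.71, 5.21 and 4.57 TPM in refed cavefish, with overlap throughout. rorca (ENSAMXG00000009363) measured 1.7, 6.93 and 4.77 TPM in starved and 3.13, 1.4 and 1.25 TPM in refed surface fish, against 1.04, 1.29 and 1.13 TPM in starved and 1.68, 2.3 and 0.67 TPM in refed cavefish. Starved cavefish lay below starved surface fish in rorca, at -1.21 ± 0.39 (limma adjusted p = 0.0608). nr1d4a, which was not tested, measured 0 to 0.12 TPM in surface fish and 0.49 to 1.55 TPM in cavefish.

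At the D-box, dbpb (ENSAMXG00000042954) showed the largest population difference among the 43 genes. This paralogue of Dbp, an activator whose daily swing in liver is large in mammals, measured 3.9, 0.45 and 0.95 TPM in starved and 2.48, 0.63 and 0.7 TPM in refed surface fish. In cavefish dbpb had 8.79, 12.79 and 12 TPM when starved and 10.97, 13.66 and 17.15 TPM when refed. All cavefish lay above all surface fish, by 2.33 ± 0.42 in starved fish (limma adjusted p = 0.00495) and 2.79 ± 0.42 in refed fish (limma adjusted p = 0.00154). The means differed 6.33-fold and 11-fold. In surface fish only 1 starved and 1 refed library reached 1 TPM. dbpb therefore passed the filter only through cavefish, the population in which it was high, and its calls are no independent support.

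Among the other D-box activators, dbpa, tefa, tefb, hlfa and hlfb, no comparison gave a call. dbpa ranged from 3.05 to 6.39 TPM in surface fish and from 5.16 to 9.19 TPM in cavefish, whose libraries lay above those of surface fish in each state. Its differences of 0.57 ± 0.25 and 0.61 ± 0.25 missed the threshold (limma adjusted p = 0.165 and 0.133). tefb, the second most abundant clock gene, ranged from 17.24 to 70.09 TPM, and its refeeding response in cavefish was -0.91 ± 0.33 (limma adjusted p = 0.0606). tefa lay between 4.75 and 12.58 TPM, hlfa between 7.8 and 15.58 TPM and hlfb between 10.96 and 27.94 TPM.

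nfil3-6 (ENSAMXG00000025841), a relative of the D-box repressor Nfil3, was the most abundant clock gene and fell in cavefish after the meal. It measured 149.92, 66.68 and 89.91 TPM in starved and 67.21, 48.22 and 84.1 TPM in refed surface fish. In cavefish nfil3-6 had 86, 147.76 and 108.86 TPM when starved and 34.63, 13.78 and 65.43 TPM when refed. The cavefish groups did not overlap, and the surface groups did. The fall was -1.78 ± 0.49 in cavefish (limma adjusted p = 0.018, 0.00512 to 0.0639 over 23 alternatives) and ended without Pachon_starved replicate 2 or Pachon_refed replicate 2. In surface fish the value was -0.57 ± 0.49 (limma adjusted p = 0.463), and the responses differed by -1.22 ± 0.70 (limma adjusted p = 0.399).

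nfil3-5, with 1.95 to 19.54 TPM, and nfil3 gave no call. nfil3 measured 76.68 TPM in Surface_refed replicate 3, 24.01 TPM in Pachon_refed replicate 1 and 1.47 to 5.58 TPM in the other 10. Surface_refed replicate 3 also had the highest macrophage marker sum, which MFAP4 entries led and other markers of that list did not follow. Its refeeding responses of 1.15 ± 0.92 in surface fish and 1.52 ± 0.92 in cavefish rested on those libraries (limma adjusted p = 0.421 and 0.241).

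Of the further repressors, ciarta (ENSAMXG00000035450), a paralogue of Ciart, which blocks the Clock and Bmal pair in mammals, was higher in cavefish and fell there after the meal. It measured 7.48, 3.11 and 2.98 TPM in starved and 3.44, 1.92 and 1.35 TPM in refed surface fish. In cavefish ciarta had 25.6, 13.62 and 14.43 TPM when starved and 7.61, 7.68 and 6.98 TPM when refed. Populations did not overlap in either state, and neither did starved and refed cavefish. The difference in starved fish was 1.81 ± 0.34 (limma adjusted p = 0.00593). In refed fish it was 1.43 ± 0.34 (limma adjusted p = 0.0182, 0.00554 to 0.0669 over 23 alternatives) and ended without Surface_refed replicate 2 or 3, without Pachon_refed replicate 1 or 2, without Surface_starved replicate 2 and Pachon_refed replicate 1 together, and with quantile normalization. The fall in cavefish was -1.11 ± 0.34 (limma adjusted p = 0.0291, 0.00807 to 0.114 over 23 alternatives). It ended without Pachon_starved replicate 1, without any 1 Pachon_refed library, without Surface_starved replicate 2 and Pachon_refed replicate 1 together and with no filter. The paralogue ciartb ranged from 1.66 to 38.71 TPM with no call.

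bhlhe41 (ENSAMXG00000039579), the Dec2 gene, measured 1.35, 1.66 and 1.53 TPM in starved and 0.98, 1.2 and 1 TPM in refed surface fish. In cavefish bhlhe41 had 5.39, 4.99 and 2.98 TPM when starved and 3.01, 2.69 and 4.38 TPM when refed. All cavefish lay above all surface fish, by 1.09 ± 0.21 when starved and 1.06 ± 0.21 when refed (limma adjusted p = 0.00655 and 0.00693). The related gene bhlhe40 (ENSAMXG00000036916), or Dec1, rose in surface fish after the meal. It measured 39.57, 12.63 and 27.49 TPM in starved and 43.74, 69.24 and 63.51 TPM in refed surface fish. In cavefish bhlhe40 had 11.57, 14.69 and 11.59 TPM when starved and 24.68, 34.17 and 19.39 TPM when refed. In both populations refed fish lay above starved fish, and refed surface fish lay above refed cavefish.

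The rise of bhlhe40 in surface fish was 1.23 ± 0.37 (limma adjusted p = 0.0398, 0.0178 to 0.14 over 23 alternatives). It ended under 13 alternatives: without Surface_starved or Surface_refed replicate 2 or 3, without any 1 Pachon_starved library, without Pachon_refed replicate 1, without the latter and Surface_starved replicate 2 together, with no filter, with quantile normalization, with the replicate block and with only the 2 groups. In cavefish the response of bhlhe40 was 0.96 ± 0.37 (limma adjusted p = 0.0701), and between refed populations the difference was -1.15 ± 0.37 (limma adjusted p = 0.0619).

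Among the proteins that act with or on clock proteins, tipin (ENSAMXG00000035999), whose product binds Timeless and protects replication forks, was lower in starved cavefish than in starved surface fish and rose in cavefish after the meal. It measured 4.54, 5.64 and 4.48 TPM in starved and 3.16, 4.67 and 5.46 TPM in refed surface fish, against 1.79, 2.35 and 1.22 TPM in starved and 3.09, 4.82 and 4.92 TPM in refed cavefish. Starved cavefish were below the 9 other libraries. The difference from starved surface fish was -1.09 ± 0.23 (limma adjusted p = 0.0109, 0.00616 to 0.0535 over 22 alternatives) and the rise in cavefish 0.92 ± 0.23 (limma adjusted p = 0.011, 0.00159 to 0.0522 over 22 alternatives). Both calls ended without Pachon_starved replicate 3. The casein kinase genes csnk1da and csnk1db, whose products phosphorylate period proteins, gave no call and lay between 14.43 and 22.43 TPM and between 12.34 and 26.34 TPM.

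tefm (ENSAMXG00000040252), the mitochondrial gene caught by its letters, measured 1.36, 1.86 and 1.95 TPM in starved and 2.31, 2.24 and 2.59 TPM in refed surface fish. In cavefish tefm had 1.65, 1.92 and 1.75 TPM when starved and 5.46, 5.09 and 4.71 TPM when refed. Refed cavefish lay above all other libraries, with a rise of 1.13 ± 0.15 (limma adjusted p = 0.00035) and a difference from refed surface fish of 0.85 ± 0.15 (limma adjusted p = 0.00356).

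**Figure D5:**
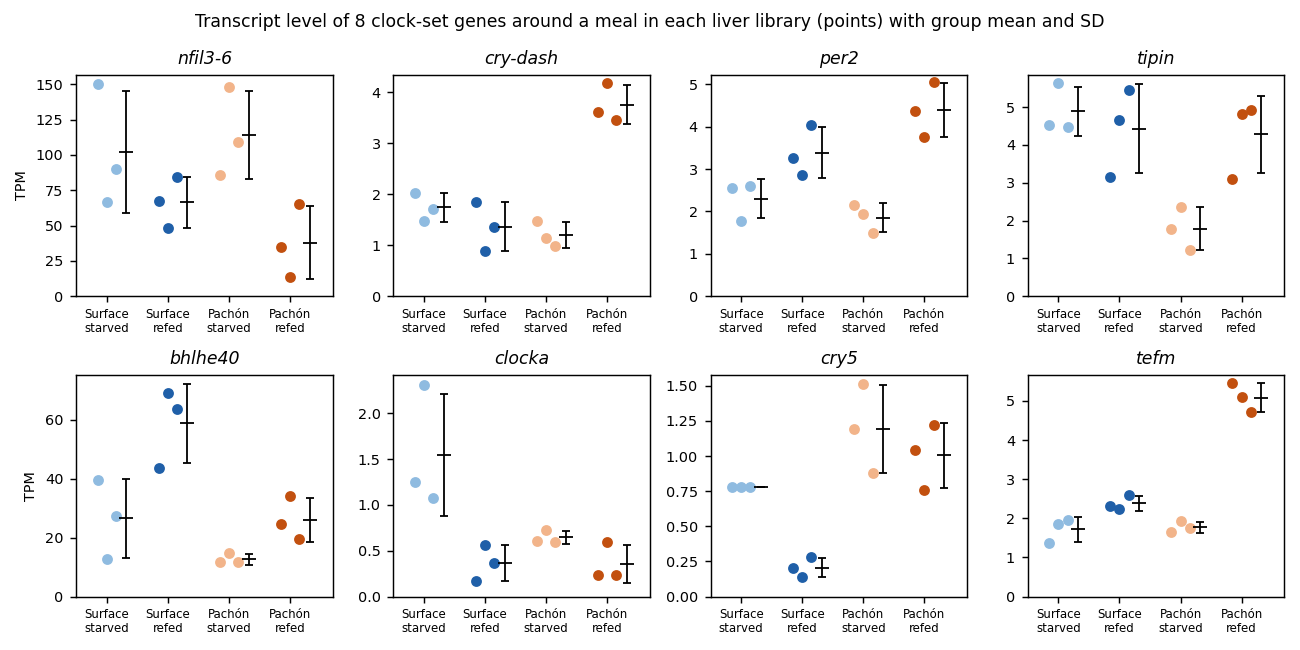
TPM of 8 clock-set genes in each library (points) with the mean and SD of 3 libraries beside them, in the 4 groups. In cry-dash the 3 refed cavefish, at 3.46 to 4.18 TPM, are above all other libraries.

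Whether cavefish and surface fish responded differently to the meal was tested directly. By limma, 0 of 43 clock genes and 0.0684% of all tested genes were called (0.0608% towards a higher value in cavefish and 0.0076% towards a lower one). At an unadjusted p under 0.05 there were 6 clock genes of 43, against 16.5% of all tested genes. With library weights 1 clock gene, cry-dash, was called. Its difference in response was 1.34 ± 0.26 (limma adjusted p = 0.0947, 0.0455 to 0.255 over 21 alternatives). The other 5 were cry4, arntl2, arntl1a, tipin and tefm. Their differences, picked by that unadjusted p, were 2.26 ± 0.85 for cry4, 1.41 ± 0.62 for arntl2, 1.08 ± 0.35 for arntl1a, 1.06 ± 0.33 for tipin and 0.82 ± 0.21 for tefm (limma adjusted p = 0.233, 0.288, 0.196, 0.189 and 0.16). Values lay above 0 for 26 of 43 clock genes and 71% of all genes, with medians of 0.37 and 0.29 log2 units.

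Levels within the set spanned a wide range. Mean TPM over the 12 libraries ran from 0.729 for clocka to 80.2 for nfil3-6 with a median of 6.96, and 16 of 43 genes had a mean of at least 10 TPM. In all, 19 genes were called in at least 1 comparison and 24 in none. The matching share of all tested genes was not computed, so this count describes the set and is no result about it. ciarta was called in 3 comparisons, the most of any.

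Genes that act on or follow the clock were read from 5 further lists, named by their smallest p values. Among 33 tested kinases, phosphatases and ubiquitin ligases that modify clock proteins, 3 rose and 3 fell after the meal in surface fish (against 18.7% of all genes called), and 11 rose and 4 fell in cavefish (against 30.6%). ppp5c, a phosphatase that acts on casein kinase 1, rose by 1.90 ± 0.29 and 2.68 ± 0.29 in the respective populations (limma adjusted p = 0.00184 and 0.00017). The phosphatase gene PPP2CA rose by 1.02 ± 0.26 and 1.67 ± 0.26 (limma adjusted p = 0.0191 and 0.000733). Its surface call ended without Surface_starved replicate 1, without Surface_refed replicate 3 and with only the 2 groups (limma adjusted p up to 0.0722 over 23 alternatives). The deubiquitinase gene usp2b, also on the list of clock outputs, fell, at -1.88 ± 0.36 and -1.77 ± 0.36 (limma adjusted p = 0.006 and 0.00362), and the surface call ended with only the 2 groups in the fit (limma adjusted p = 0.0587, the highest of 23 alternatives). Between populations 0 were higher and 4 lower in starved cavefish, and 0 higher and 2 lower in refed cavefish, against 13.1% and 13.4% of all genes called. The ubiquitin ligase scaffold cul1a measured 15.51 to 20.78 TPM in surface fish and 5.62 to 9.98 TPM in cavefish, a difference of -1.59 ± 0.16 when starved and -0.79 ± 0.16 when refed (limma adjusted p = 9.74e-05 and 0.0086). The kinase gene gsk3aa was lower by -1.37 ± 0.24 and -1.02 ± 0.24 in the same order (limma adjusted p = 0.00368 and 0.016). It measured 1.95 to 3.85 TPM in surface fish and 0.28 to 1.67 TPM in cavefish. gsk3aa passed the filter only through surface fish, in which it was high, so its calls are no independent support. Its refed call ended without Surface_refed replicate 3, without Pachon_refed replicate 2, without Surface_starved replicate 2 and Pachon_refed replicate 1 together or with only the 2 groups (limma adjusted p up to 0.0665 over 22 alternatives).

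Of 34 tested cofactors, 3 rose and 2 fell in surface fish after the meal and 9 rose and 1 fell in cavefish, against 18.7% and 30.6% of all genes called. The deacetylase gene hdac1 rose by 1.02 ± 0.24 and 1.56 ± 0.24 (limma adjusted p = 0.0133 and 0.000678). The surface call of hdac1 ended without Surface_refed replicate 3 and with only the 2 groups (limma adjusted p up to 0.0691 over 23 alternatives). ezh2, a histone methyltransferase, rose by 1.26 ± 0.32 and 2.179 ± 0.32 (limma adjusted p = 0.0192 and 0.00054). Its surface call ended without Surface_starved replicate 1 or Surface_refed replicate 3 (limma adjusted p up to 0.0672 over 23 alternatives). Between populations 0 cofactors were higher and 2 lower in starved cavefish, with wdr5 at -1.08 ± 0.23 (limma adjusted p = 0.0114), and 1 was higher and 0 lower in refed cavefish, against 13.1% and 13.4% of all genes.

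The 36 tested clock-controlled output genes of liver gave 1 rise and 4 falls in surface fish and 4 rises and 2 falls in cavefish, against 18.7% and 30.6% of all genes called after the meal. pparda, a nuclear receptor gene, fell by -1.75 ± 0.23 and -1.43 ± 0.23 (limma adjusted p = 0.00119 and 0.00106). pparab, for the fasting receptor Ppar alpha, rose by 2.73 ± 0.46 in cavefish (limma adjusted p = 0.00127), with 1.24 ± 0.46 in surface fish (limma adjusted p = 0.0847) and a difference between the responses of 1.49 ± 0.65 (limma adjusted p = 0.286). Between populations 0 were higher and 3 lower in starved cavefish, and 4 higher and 0 lower in refed cavefish, against 13.1% and 13.4% of all genes called.

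In a list of DNA repair genes, drawn up from those known as light-induced in fish cells, 19 were tested, and 1 rose and 3 fell in surface fish while 3 rose and 6 fell in cavefish. Over all genes 9.03% rose and 9.68% fell in surface fish, and 22.9% rose and 7.64% fell in cavefish. uvssa, needed for repair of transcribed strands, measured 5.09 to 10.21 TPM in starved and 1.61 to 2.95 TPM in refed fish, a fall of -1.83 ± 0.21 in surface fish and -1.27 ± 0.21 in cavefish (limma adjusted p = 0.000797 and 0.00119). xpa, a damage sensor, fell by -1.73 ± 0.26 in surface fish and -1.03 ± 0.26 in cavefish (limma adjusted p = 0.00184 and 0.0119). It measured 3.11 to 5.52 TPM in starved fish, 0 to 0.86 TPM in refed surface fish and 0.9 to 1.9 TPM in refed cavefish. xpa passed the filter only through starved fish, in which it was high, so its calls are no independent support. apex1, an endonuclease of base repair, rose by 1.40 ± 0.30 and 2.27 ± 0.30 (limma adjusted p = 0.00926 and 0.000339), and its surface call ended with only the 2 groups (limma adjusted p = 0.0775, the highest of 23 alternatives). Between populations 0 of these genes were called by limma in starved fish, against 13.1% of all genes. In refed cavefish 1 was higher and 0 lower, against 13.4% of all genes called.

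Only 2 of 26 matched non-visual opsin and phototransduction genes had enough transcript to be tested. One of them, rgrb, which encodes a retinal G protein-coupled receptor, was far lower in cavefish. It measured 121.97, 102.04 and 93.5 TPM in starved and 64.13, 138.94 and 47.64 TPM in refed surface fish. In cavefish rgrb had 13.14, 7.97 and 7.93 TPM when starved and 3.94, 7.8 and 5.88 TPM when refed. All cavefish lay below all surface fish, at -3.35 ± 0.37 when starved and -3.51 ± 0.37 when refed (limma adjusted p = 0.000192 and 0.000134), and both calls held under every alternative run.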

How the data were processed

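Values were TPM per gene and library, as deposited by the authors. The submitters' processing notes name RSEM, Bowtie2, STAR 2.6.1c and bcl2fastq 2.18. What each did, and which genome build and annotation they used, is not stated. Per the labels' protocols, the polyA libraries were stranded and read as single 50-base reads. No 2 of 66 library pairs were identical. Nothing in the labels beyond numbers describes the replicates, so p-values measure the spread between these libraries. Counts of fish in the text are counts of libraries. TPM are not counts, so log2(TPM + 1) was fitted with limma 3.58.1 in R 4.3.3: 4 group means, a mean-variance trend, 8 residual and 3.303 prior degrees of freedom. The 13157 genes reaching 1 TPM in 3 or more libraries were tested, and p-values were adjusted by Benjamini and Hochberg within each of 5 comparisons. The fit was tested on simulated data.

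The clock genes and lists were chosen with earlier results of these data known. Library values are given for members called in a comparison or belonging to the core loop, and for other members ranges; some genes that enter the counts are not reported here. Of each further list, up to 4 called genes with the smallest p could be named; the text names at most the first 2 per comparison, and of these leaves out some whose calls ended under alternatives. Symbols of 44 of the 48 genes are in the RefSeq gene table used for names; no sequence is printed. Alternatives were pseudocounts of 0.1 and 0.5, no filter, a filter of 5 TPM, 3 other scalings, the replicate number as a block, only the 2 groups compared, library weights, each library left out, and Surface_starved replicate 2 with Pachon_refed replicate 1 left out. The count without tefm, and the alternatives for the further lists, were chosen after seeing the data.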

Additional observations from a re-analysis of the deposited data

How the results depend on the processing

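No call of a clock gene changed direction. Calls of clock genes after the meal in surface fish fell from 4 to 2 with a filter of 5 TPM, quantile normalization, the replicate block, only the 2 groups or Surface_starved replicate 2 and Pachon_refed replicate 1 left out together. After the meal in cavefish they went from 9 to 5 with the filter of 5 TPM, 14 with quantile normalization, 16 with only the 2 groups and 18 with library weights. Between starved populations they went from 9 to 17 with library weights and between refed populations from 12 to 5 with the filter of 5 TPM, which keeps fewer of the low clock genes. Over all genes, calls after the meal in surface fish fell from 2461 to 837 with only the 2 groups, and with the filter of 5 TPM from 1719 to 969 between starved and from 1768 to 1017 between refed populations. For the difference in response, 9 genes were called, against 1 and 4 with pseudocounts of 0.1 and 0.5, 21 with no filter, 0 with the filter of 5 TPM, 1 after rescaling that left the 20 top genes out, 18 with quantile normalization, 0 with the replicate block, 35 with library weights, 0 with the pair left out, and for clock genes 1 with library weights instead of 0. With only the 2 groups that difference could not be fitted.

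With 1 library left out, clock calls ranged from 2 to 5 for surface refeeding, 7 to 11 for cavefish refeeding, 5 (without Pachon_starved replicate 3) to 14 (without Surface_starved replicate 1) between starved and 7 (without Pachon_refed replicate 2) to 12 between refed populations. For surface refeeding the 2 calls came without Surface_starved replicate 2 or 3 or Surface_refed replicate 3. Over all genes the ranges were 1406 (without Surface_refed replicate 3) to 2387, 2769 to 4325, 881 (without Pachon_starved replicate 3; 1064 without its replicate 1) to 1794 and 1077 (without Pachon_refed replicate 2; 1109 without Surface_refed replicate 2) to 1983, and 0 to 55 for the difference in response.

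Deviations from group means correlated between libraries of the same number at -0.245 to 0.123, and 0 of 12 libraries correlated best with their own number, so the numbers were not taken as pairs. With the replicate block 2, 9, 9 and 9 clock genes were called in the 4 comparisons, against 4, 9, 9 and 12. Of 181 clock values with no call, 32 were called under at least 1 alternative and 59 changed sign under at least 1. The cause of these shifts was not tested. Unknown depth limits the genes near 1 TPM.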
